A study of Homo sapiens with 10 samples.

Results

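The genes described here are 10 keratins of stratified epithelium, the type II keratins KRT3, KRT4, KRT5, KRT6A, KRT6B and KRT6C and the type I keratins KRT13, KRT14, KRT16 and KRT17. They are 10 of the 23234 genes listed in all 5 deposited tables. They were taken by name and were chosen from their levels and ratios in these same tables, so every level and ratio of a member below is a description and carries no test. RNA was sequenced from cultures of 3 human lung adenocarcinoma cell lines: PC9, PC9M, which is labelled as more metastatic to bone and brain, and H358. Cells of all 3 lines received either DMSO or GNF5, an allosteric inhibitor of the ABL kinases, for 72 h, at a labelled dose of 10 mM in PC9 and in H358 and of 20 mM in PC9M. These units are given as labelled and were not checked. PC9 and PC9M cells were also transduced with scrambled shRNA or with shRNAs against ABL1 and ABL2, in the presence of 8 µg/mL polybrene, in cultures with no time label. Each of the 10 groups is 1 library, so no value has a replicate error, and every difference below is a difference between single libraries.

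Keratins are intermediate filament proteins that assemble as pairs of 1 type I and 1 type II chain. Simple epithelia, including the lining of the lung's distal airspaces, mainly use KRT8 and KRT18 with KRT7 and KRT19. Stratified epithelia use KRT5 with KRT14 in the basal layer and KRT4 with KRT13 above it in moist linings such as the oesophagus, and KRT3 is known from the cornea. KRT6A, KRT6B, KRT6C, KRT16 and KRT17 are known from hair follicles, wounded epidermis and hyperproliferative epithelium.

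The unit is FPKM, fragments normalised to transcript length and to the fragments mapped in the library, as listed by the authors for both libraries of a pair. A ratio is log2((treated FPKM + 1)/(control FPKM + 1)) within 1 table, and a gene was counted as 2-fold lower or higher when this was at most -1 or at least 1, among genes with at least 1 FPKM in either library of the pair. Because 1 FPKM is added, the ratio understates the difference for genes near that level. A gene with at least 1 FPKM in only 1 library of a pair passes through the library where it is higher, so its direction is set by that minimum. Each pair was normalised separately, so levels set side by side across pairs are across tables, and in bulk RNA fewer cells carrying a transcript cannot be told apart from less transcript per cell. Read depth is unknown, and no counting interval can be given.

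The targeted transcripts were lower in the knockdown libraries. ABL1 was listed at 24.9 FPKM in PC9 with scrambled shRNA and at 3.97 FPKM with the ABL1/ABL2 shRNAs, and at 10.5 and 3.56 FPKM in PC9M. ABL2 stood at 7.88 and 1.87 FPKM in PC9, and at 5.22 and 3.03 FPKM in PC9M, where its ratio of -0.63 was short of 2-fold. The epithelial markers EPCAM and CDH1 were present in all 10 libraries, at no less than 173 and 21.7 FPKM. NKX2-1, a transcription factor used to mark lung adenocarcinoma, stood at 92.1 and 46.3 FPKM in the 2 H358 libraries and at no more than 0.0206 FPKM in the 8 libraries of PC9 and PC9M. The lung marker SFTPB went the other way with DMSO, at 15.2 FPKM in PC9 and 0.179 in H358, but stood at 0.197 FPKM in PC9 with scrambled shRNA. NAPSA stood at 1.37 FPKM in PC9, 0.217 in PC9M and 9.47 in H358 with DMSO. Summed markers of fibroblasts lay between 1.29 and 13.1 FPKM, of leukocytes between 0.723 and 3.94 FPKM and of endothelium between 0.278 and 31.6 FPKM. Of the fibroblast markers DCN was listed at 0 in every library, while COL1A1 reached 6.56 and LUM 6.54 FPKM in H358. Of the leukocyte markers PTPRC did not exceed 0.104 FPKM, while CSF1R reached 2.72 FPKM in PC9M and CD14 2.66 FPKM in PC9.

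The KRT6 genes are shown first because their near-identity bears on every value given for them. KRT6A, KRT6B and KRT6C lie next to each other on chromosome 12 and encode nearly the same type II keratin. Their coding sequences of 1695 bases differed among the 3 genes at 52 positions, 3.07% of the total, and the longest stretch without a difference ran for 269 bases. Pairwise coding identity was 97.5% for KRT6A with KRT6B, 97.9% for KRT6A with KRT6C and 98.5% for KRT6B with KRT6C. The window of 60 coding bases with the most differences, coding bases 663 to 722, is printed from the GENCODE transcripts on the minus strand of GRCh38, at chr12:52491555-52491614 for KRT6A, chr12:52450439-52450498 for KRT6B and chr12:52472099-52472158 for KRT6C. Capitals mark the 9 positions at which the 3 genes are not all the same.
KRT6A: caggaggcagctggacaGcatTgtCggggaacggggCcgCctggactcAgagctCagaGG
KRT6B: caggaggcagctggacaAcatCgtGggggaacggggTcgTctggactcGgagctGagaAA
KRT6C: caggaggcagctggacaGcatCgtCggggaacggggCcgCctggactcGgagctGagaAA

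How reads that fit several genes were assigned is not given in the sources used here, nor is the read length. Of all windows of 50 bases along the transcript, 39.1% in KRT6A, 47.1% in KRT6B and 53.6% in KRT6C were identical to a window of another gene, nearly always another KRT6 gene. For windows of 100 bases the shares were 18.2%, 24.6% and 31.7%. The split of reads among the 3 genes is therefore uncertain, and their summed FPKM is given beside them as the KRT6 sum. KRT14, KRT16 and KRT17 shared 23.8%, 22.0% and 16.0% of their 50-base windows, in part with one another and in part with the KRT16 and KRT17 pseudogenes. KRT5, KRT3 and KRT13 shared 3.99%, 3.92% and 1.03%, and KRT4 shared none.

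The loci are listed on hg18 in 2 clusters. In the type II cluster on chromosome 12, KRT6B (51126702 to 51132177), KRT6C (51148567 to 51153836), KRT6A (51167225 to 51173448) and KRT5 (51194626 to 51200510) follow each other without another keratin gene between them. Farther along lie KRT3 (51469736 to 51476159) and its neighbour KRT4 (51486594 to 51494167). In the type I cluster on chromosome 17, KRT13 (36910759 to 36915391) is followed after KRT15, KRT19 and KRT9 by KRT14 (36992057 to 36996673), KRT16 (37019557 to 37022605) and KRT17 (37029218 to 37034408).

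Members were a substantial part of the keratin transcripts in PC9 alone among the 3 lines. Across all 54 keratin genes in the tables, the 10 members made up 16.4% of the summed FPKM in PC9 with DMSO and 14.4% in PC9 with scrambled shRNA. They made up 0.116% and 1.54% in the corresponding PC9M libraries and 2.38% in H358 with DMSO. Simple epithelial keratins held 80.4% to 99.0% of the keratin FPKM in every library. Type I chains made up between 45.9% and 61.9% of all keratin FPKM, while among the members the types were far from even. In PC9 with DMSO the type I members summed to 1366 FPKM and the type II members to 53.6 FPKM. The imbalance ran the other way in H358 with DMSO, at 2.73 FPKM of type I and 60.6 FPKM of type II, and in PC9M with scrambled shRNA, at 13.7 and 124 FPKM.

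**Figure D1:**
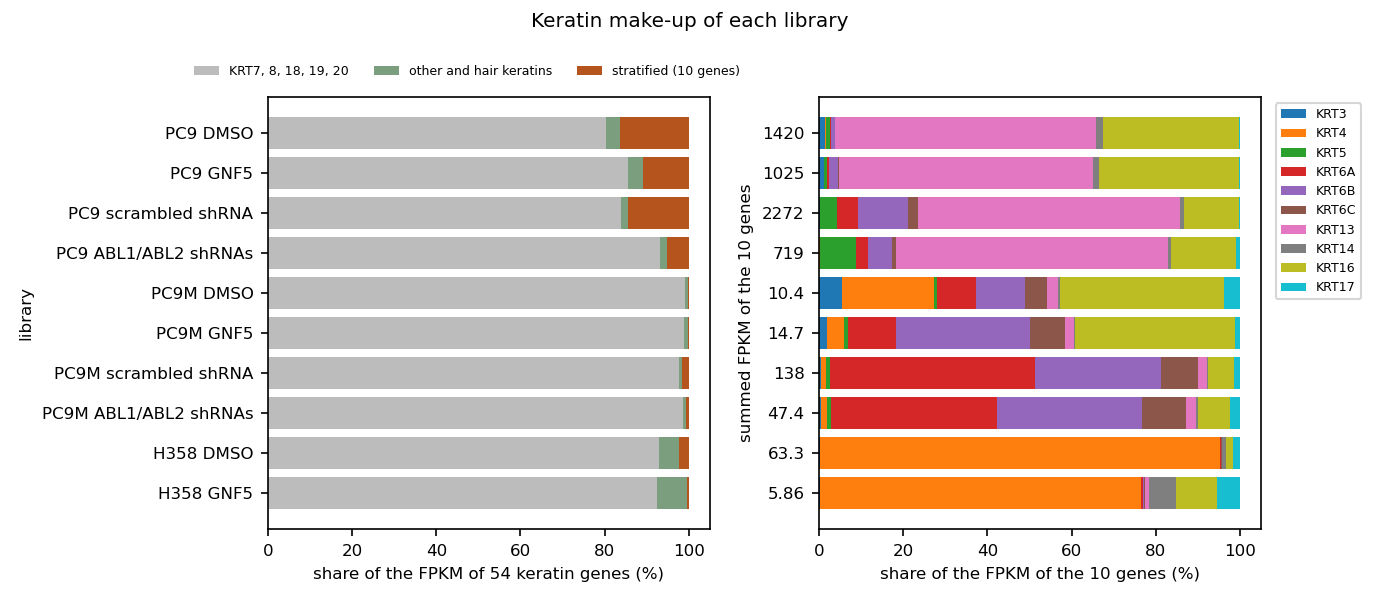
Keratin make-up of the 10 libraries. Left, the share (%) of the summed FPKM of 54 keratin genes held by simple keratins, other and hair keratins, and the 10 members, which reach 16.4% in PC9 with DMSO. Right, the share (%) of each member in the members' summed FPKM, which is printed beside each bar: KRT13 fills most of every PC9 bar and KRT4 most of both H358 bars.

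The member that dominated differed by line. KRT13 held 62.0% of the members' FPKM in PC9 with DMSO and was the 80th highest gene of that library, with KRT16 the 147th. With scrambled shRNA KRT13 was the 46th highest gene in PC9 and KRT6B the 276th. KRT4 held 95.3% of the members' FPKM in H358 with DMSO. In PC9M the KRT6 sum held 87.5% with scrambled shRNA, whereas KRT16, at 38.9%, was the leading single gene with DMSO. Set across tables and centred on the median of all genes, 8 of the 10 members were at least 2-fold lower in PC9M than in PC9 with DMSO and none was higher, beside 22.8% of all genes lower and 20.4% higher. KRT13 differed most, with a centred log2 difference of -9.57. In H358 against PC9, both with DMSO, 9 of 10 were 2-fold lower, beside 24% of all genes, and KRT4 alone was higher, at 3.79, beside 21.3%. In PC9M against PC9 with scrambled shRNA 8 were again 2-fold lower and none higher, beside 17.5% and 16.8%. Of the members lower with DMSO, all but KRT6B and KRT16 were below 1 FPKM in PC9M, and all but KRT16 and KRT17 in H358. With scrambled shRNA, KRT3 and KRT14 were below 1 FPKM in PC9M. These members passed through PC9 alone, so their side was set by the minimum. The levels also helped to choose the members, so nothing is read from these shares.

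**Figure D2:**
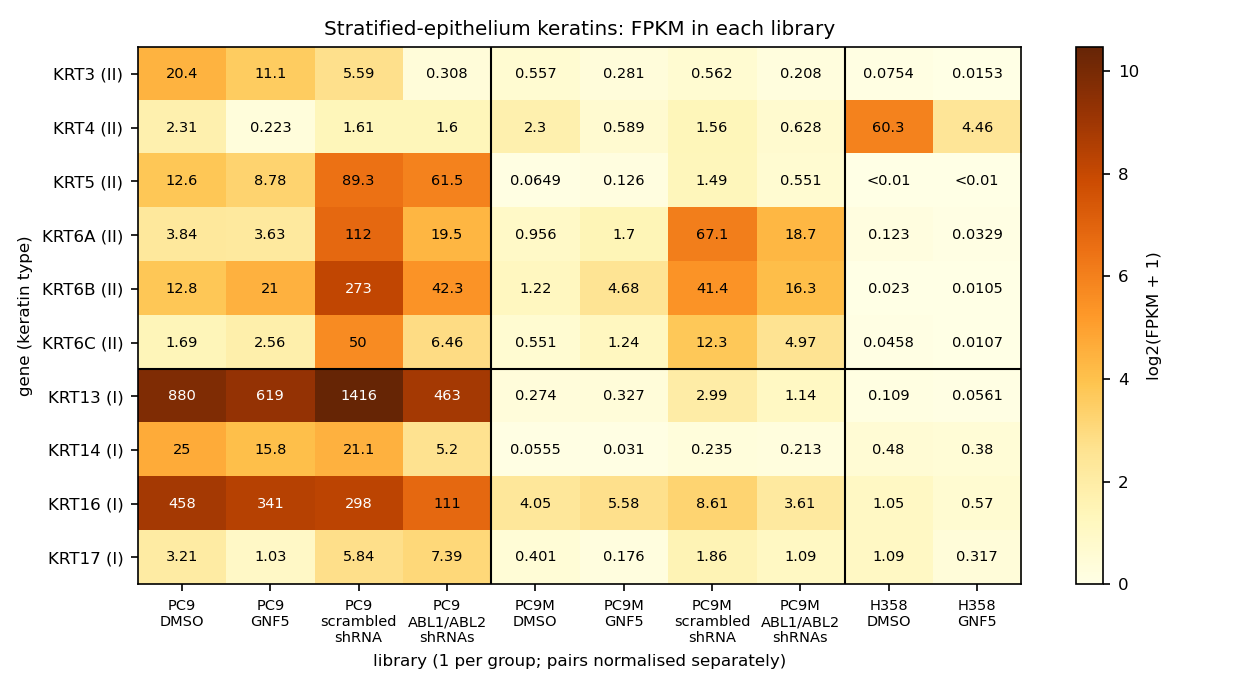
FPKM of each member (rows, keratin type in brackets) in each of the 10 libraries (columns); shading is log2(FPKM + 1) and the number is the FPKM. KRT13 and KRT16 stand high in the 4 PC9 libraries, KRT6A, KRT6B and KRT6C in the scrambled shRNA libraries, and KRT4 in H358 with DMSO.

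With the ABL1/ABL2 shRNAs in PC9, 9 of the 10 members were lower than with scrambled shRNA, KRT4 only by a ratio of -0.008. Of these, 7 were 2-fold lower and none was 2-fold higher, beside 1.92% of all 11861 genes that passed lower and 1.21% higher. Since these ratios helped to choose the members, nothing is read from that contrast of shares. KRT3 passed there through the scrambled library alone, so its lower side was set by the minimum. The median ratio of the 10 members was -1.72, and that of all genes was -0.09. As the latter is below 0, at least as many genes were lower as higher. Nothing is read from the count of members merely lower. Their summed FPKM was 2272 with scrambled shRNA and 719 with the ABL1/ABL2 shRNAs, and their share of keratin FPKM 14.4% and 5.11%. In PC9M all 8 members that passed were lower with the shRNAs and 4 were 2-fold lower, beside 0.808% of all genes. None was higher, beside 1.01%. KRT4 and KRT5 passed there through the scrambled library alone, so their lower side was set by the minimum. Nothing is read from the count of 8 lower. The median over all 10 was -0.79 and over the 8 that passed -0.98, beside -0.01 for all genes that passed. The summed FPKM of the 10 was 138 and 47.4.

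**Figure D3:**
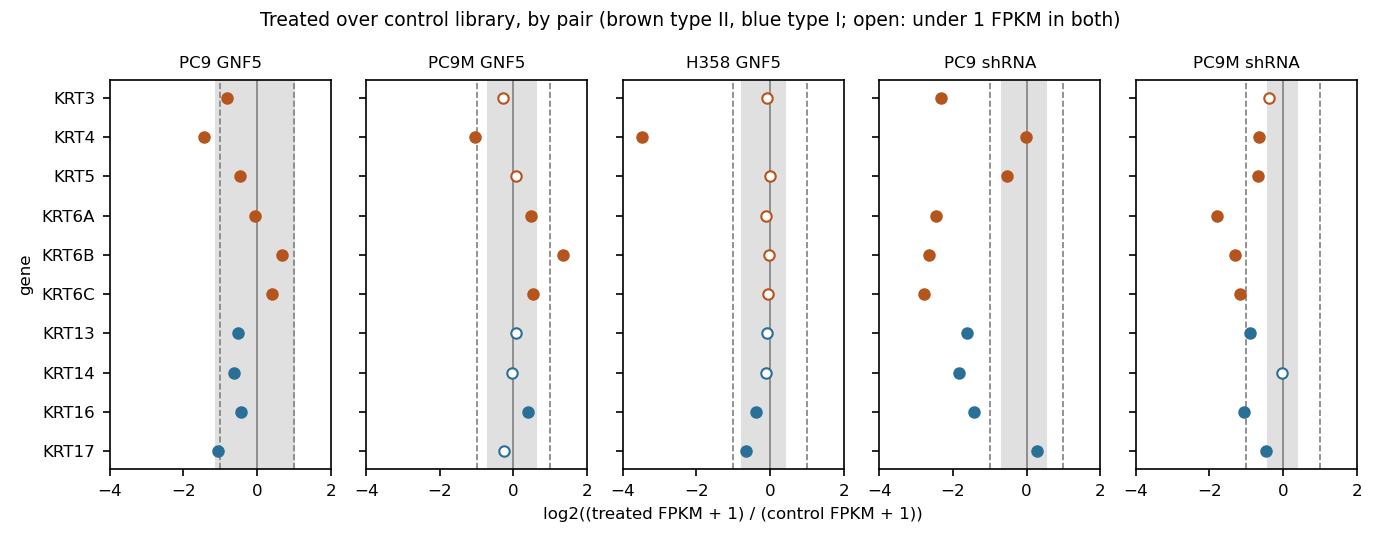
Log2 ratio of treated over control library for each member in the 5 pairs; filled points have at least 1 FPKM in either library, open points less, the grey band spans the 5th to 95th percentile of all genes that passed, and dashed lines mark 2-fold. In the PC9 shRNA panel 7 members lie at or beyond the lower 2-fold line and KRT17 lies at 0.29.

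The KRT6 genes had the lowest ratios of the members with the shRNAs in both lines when 1 FPKM was added. With 0.1 FPKM added, KRT3 was lower in PC9, at -3.80 beside -2.51, -2.69 and -2.93 for KRT6A, KRT6B and KRT6C, and KRT13 stood at -1.31 in PC9M beside -1.30 for KRT6C. KRT6A stood at 112 FPKM with scrambled shRNA and 19.5 with the ABL1/ABL2 shRNAs in PC9, and at 67.1 and 18.7 in PC9M. KRT6B stood at 273 and 42.3 FPKM in PC9 and at 41.4 and 16.3 in PC9M. KRT6C stood at 50.0 and 6.46 FPKM in PC9 and at 12.3 and 4.97 in PC9M. All 3 genes were thus high in the scrambled library and lower in the knockdown library of each line. Their ratios in PC9 were -2.46, -2.66 and -2.77, the 51st, 48th and 45th lowest of all genes that passed, and in PC9M -1.79, -1.29 and -1.16. The KRT6 sum, which does not depend on the split of reads among the 3, fell by 2.65 on the log2 scale in PC9, from 435 to 68.2 FPKM, and by 1.57 in PC9M, from 121 to 39.9 FPKM.

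In both lines the KRT6 level with ABL1/ABL2 shRNAs was nevertheless above that of the DMSO library, where the sum was 18.3 FPKM in PC9 and 2.72 in PC9M. That order is set across tables. Scrambled over DMSO, centred on all genes, was 4.33 for the KRT6 sum in PC9 and 5.05 in PC9M, both larger in size than the difference between scrambled and ABL1/ABL2 shRNAs. These 2 control libraries of a line differ in DMSO, transduction, polybrene, labelled time and table, which cannot be told apart here. The DMSO libraries are labelled 72 h and the scrambled shRNA libraries have no time label. In PC9, 4 of 10 members were 2-fold higher with scrambled shRNA than with DMSO and 1 was lower, beside 7.28% and 10.3% of all genes. In PC9M, 6 of the 8 that passed were higher and none was lower, beside 1.62% and 1.24%. Of these, KRT5, KRT6A, KRT6C, KRT13 and KRT17 passed through the scrambled library alone, so their side was set by the minimum and nothing is read from that count. The difference between scrambled and DMSO was not the same for every member. KRT5 stood at 2.57 in PC9 and 1.24 in PC9M and KRT13 at 0.52 and 1.66, while KRT16 stood at -0.78 and 0.94.

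KRT16, the type I partner usually found with KRT6, stood at 298 FPKM with scrambled shRNA and 111 with ABL1/ABL2 shRNAs in PC9, a ratio of -1.42. In PC9M it stood at 8.61 and 3.61 FPKM, a ratio of -1.06. It was therefore lower with the shRNAs in both lines, at levels far apart. KRT17, another type I keratin of activated epithelium, went against the other members in PC9, with 5.84 FPKM in the scrambled library and 7.39 in the knockdown library, a ratio of 0.29. In PC9M it stood at 1.86 and 1.09 FPKM, a ratio of -0.45. KRT16 and KRT17 lie side by side on the chromosome and had a coding identity of 72.4%.

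Of the basal pair, the type I chain had the lower ratio in PC9. KRT14 stood at 21.1 FPKM with scrambled shRNA and 5.20 with ABL1/ABL2 shRNAs in PC9, a ratio of -1.83. KRT5, its type II partner, stood at 89.3 and 61.5 FPKM, a ratio of -0.53. KRT5 thus remained within 2-fold while its neighbours KRT6A, KRT6B and KRT6C did not. In PC9M, KRT5 stood at 1.49 and 0.551 FPKM, a ratio of -0.69, and KRT14 was below 1 FPKM in both libraries, at 0.235 and 0.213.

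The keratins of moist stratified linings also separated. KRT13, the most abundant member in PC9, stood at 1416 FPKM with scrambled shRNA and 463 with ABL1/ABL2 shRNAs there, a ratio of -1.61. In PC9M it stood at 2.99 and 1.14 FPKM, a ratio of -0.90 just short of 2-fold. KRT4, the type II partner of KRT13 in the oesophagus, was level in PC9 at 1.61 and 1.60 FPKM, and stood at 1.56 and 0.628 FPKM in PC9M, a ratio of -0.65. The abundant type I chain was therefore not matched in PC9 by a comparable level of its usual partner. KRT3, the corneal keratin, stood at 5.59 and 0.308 FPKM in PC9, a ratio of -2.33, and was below 1 FPKM in both PC9M libraries. With 5 FPKM added its ratio in PC9 was -0.997, short of 2-fold.

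**Figure D4:**
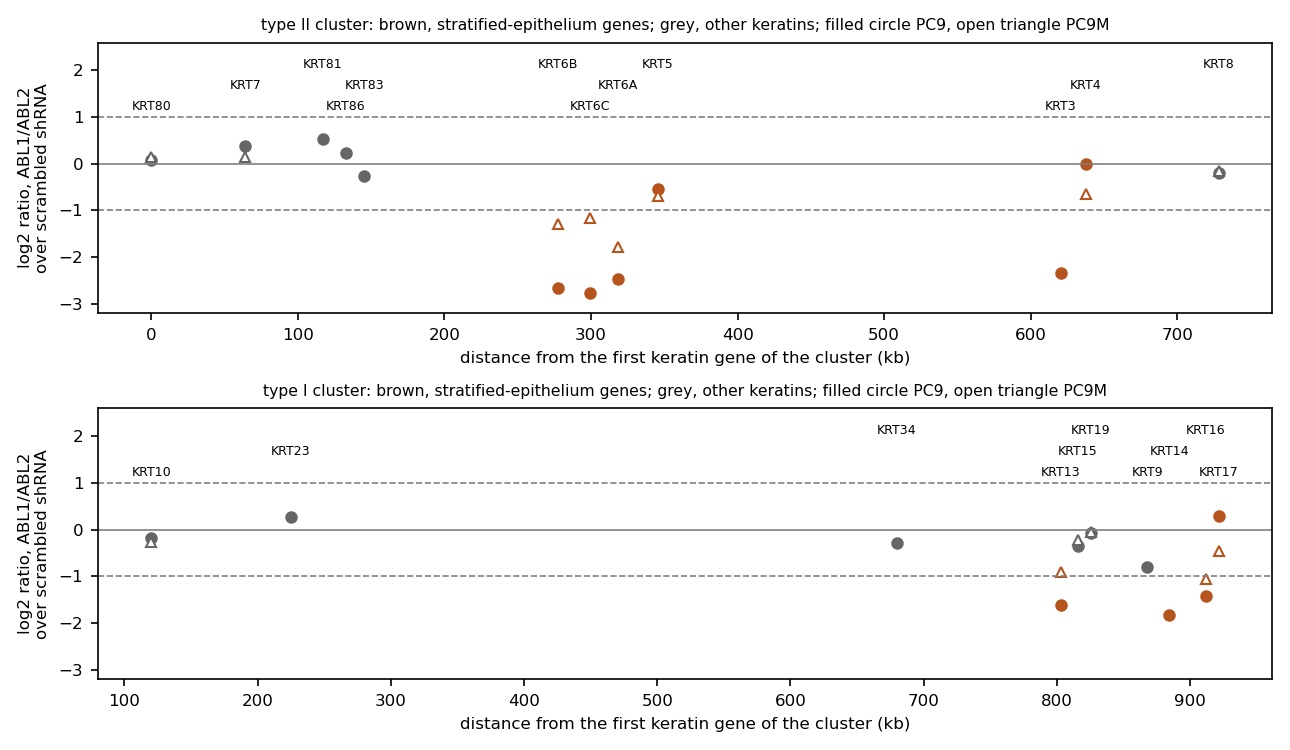
Log2 ratio of ABL1/ABL2 over scrambled shRNA against distance (kb) from the first keratin gene of the type II (top) and type I (bottom) cluster, for genes with at least 1 FPKM in either library; filled circles are PC9 and open triangles PC9M. In the type II cluster the KRT6 genes lie below the lower 2-fold line in both lines and KRT3 does so in PC9, at -2.33, while KRT5 and the hair and simple keratins lie within 2-fold. KRT3 passed in PC9 through the scrambled library alone, so its side was set by the minimum.

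Keratin genes of the same clusters that are not members and passed 1 FPKM showed no 2-fold ratio with the shRNAs when 1 FPKM was added. KRT9, a keratin of palm and sole epidermis between KRT19 and KRT14, came nearest, at 3.13 FPKM with scrambled shRNA and 1.39 with ABL1/ABL2 shRNAs in PC9, a ratio of -0.79. The FPKM values of KRT9 were more than 2-fold apart, so this contrast with the members depends on the added 1 FPKM. KRT15, next to KRT13, stood at -0.36 in PC9 and -0.21 in PC9M. KRT7 was at 0.38 and 0.15, KRT8 at -0.20 and -0.14, KRT18 at 0.13 and 0.01 and KRT19 at -0.07 and -0.05. None of the simple keratins that passed was 2-fold apart in any of the 5 pairs. Over these pairs 0.808% to 6.83% of all genes were 2-fold lower and 1.01% to 5.17% higher. Little is therefore read from so few keratins lying within 2-fold.

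With GNF5 most members were lower in PC9, KRT4 was lower in H358, and the KRT6 genes were on the higher side in PC9M. In PC9 with GNF5, 8 of 10 members were lower than with DMSO, 2 of them 2-fold, beside 6.83% of all 12004 genes that passed. None was 2-fold higher, beside 5.17%. Centring the ratios on the median of all genes turned the split of all 2-fold genes from 621 higher and 820 lower to 755 higher and 625 lower, and left 1 member 2-fold lower. The median of the 10 members was -0.49, and that of all genes -0.10. Here too at least as many genes were lower as higher, so nothing is read from the 8 members lower. The summed endothelial markers, 2 of 4 of them at 1 FPKM or more, were 31.6 FPKM with DMSO and 15.8 with GNF5 in PC9, and their part in the result was not tested.

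The most abundant members in PC9 were moderately lower with GNF5. KRT13 stood at 880 FPKM with DMSO and 619 with GNF5, a ratio of -0.51, and KRT16 at 458 and 341 FPKM, a ratio of -0.42. The 2 ratios past 2-fold belonged to members of low level. KRT4 stood at 2.31 and 0.223 FPKM, a ratio of -1.44, and KRT17 at 3.21 and 1.03 FPKM, a ratio of -1.06, which became -0.96 after centring. KRT4 passed there through the DMSO library alone, so its lower side was set by the minimum. The basal and corneal keratins were also on the lower side, KRT5 at 12.6 and 8.78 FPKM, KRT14 at 25.0 and 15.8 FPKM and KRT3 at 20.4 and 11.1 FPKM. The KRT6 genes did not share this side: KRT6B stood at 12.8 and 21.0 FPKM and KRT6C at 1.69 and 2.56 FPKM, while KRT6A was level at 3.84 and 3.63 FPKM. The KRT6 sum was 18.3 FPKM with DMSO and 27.2 with GNF5, a ratio of 0.55.

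In PC9M the members were low with and without GNF5. The median of the 10 members was 0.07 and that of the members that passed was 0.47, beside -0.06 for all genes that passed. Only 5 of 10 passed 1 FPKM, and 2 of these, KRT6A and KRT6C, passed through the GNF5 library alone. KRT4 passed through the DMSO library alone. The sides of KRT6A, KRT6C and KRT4 were set by the minimum, so nothing is read from the counts that follow. Of the 5, 4 were higher and 1 lower with GNF5. One in each direction was past 2-fold, beside 1.58% of all 12370 genes higher and 1.81% lower, and centring turned 195 higher and 224 lower genes into 238 and 182. KRT6B stood at 1.22 FPKM with DMSO and 4.68 with GNF5, a ratio of 1.36, and the KRT6 sum at 2.72 and 7.62 FPKM, a ratio of 1.21. KRT16 stood at 4.05 and 5.58 FPKM, a ratio of 0.38. KRT4 stood at 2.30 and 0.589 FPKM, a ratio of -1.05, or -0.99 after centring. The KRT6 sum was thus on the higher side with GNF5 and on the lower side with the shRNAs in both PC9 and PC9M. Each value is 1 library, so this difference between GNF5 and the shRNAs was not tested.

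H358 held 1 stratified keratin at an appreciable level. KRT4 stood at 60.3 FPKM with DMSO and 4.46 with GNF5, a ratio of -3.49 and the 49th lowest of the 12951 genes that passed. The other 2 members that passed, KRT17 at 1.09 and 0.317 FPKM and KRT16 at 1.05 and 0.570 FPKM, were low in both libraries. These 2 passed through the DMSO library alone, so their lower side was set by the minimum. KRT4 was the 1 member 2-fold lower, beside 2.4% of all genes, and none was higher, beside 1.12%. Centring changed the 2-fold genes from 145 higher and 311 lower to 199 and 202. KRT5, KRT13, KRT14 and the KRT6 sum were each below 1 FPKM in both H358 libraries, with KRT5 at 1.73e-05 and 0.00726 FPKM. The fibroblast markers, 2 of 6 of them at 1 FPKM or more, summed to 13.1 FPKM with DMSO and 7.55 with GNF5 in H358, and their part in the result was not tested. KRT4 was the member lower with GNF5 by at least 2-fold in all 3 lines with 1 FPKM added and no centring. In PC9 and PC9M KRT4 passed through the DMSO library alone, so its lower side there was set by the minimum. With 5 FPKM added its ratios were -0.48 in PC9 and -0.39 in PC9M, and it did not reach 5 FPKM in either line.

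The promoters of the neighbours KRT3 and KRT4 are shown because these neighbours were high in different lines, KRT3 in PC9 and KRT4 in H358. Of the 10 members, 3 had an entry in the RefSeq promoter table of GRCh38.p14, in windows of 300 bases that run from upstream of the annotated start to 50 bases past it. Capitals mark the letters TATAAA, which are those of the TATA box, GCCNNNGGC, which are those of the AP-2 motif, and CACCC, which are those of the KLF and Sp motif, on either strand. The windows are chr12:52796068-52796367 for KRT3 and chr12:52814067-52814366 for KRT4, both on the minus strand.
KRT3: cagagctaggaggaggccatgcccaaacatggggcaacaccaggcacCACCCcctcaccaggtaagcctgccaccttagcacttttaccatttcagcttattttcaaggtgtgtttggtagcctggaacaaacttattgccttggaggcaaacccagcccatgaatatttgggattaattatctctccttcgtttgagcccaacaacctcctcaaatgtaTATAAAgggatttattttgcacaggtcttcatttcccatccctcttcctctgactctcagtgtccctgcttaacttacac
KRT4: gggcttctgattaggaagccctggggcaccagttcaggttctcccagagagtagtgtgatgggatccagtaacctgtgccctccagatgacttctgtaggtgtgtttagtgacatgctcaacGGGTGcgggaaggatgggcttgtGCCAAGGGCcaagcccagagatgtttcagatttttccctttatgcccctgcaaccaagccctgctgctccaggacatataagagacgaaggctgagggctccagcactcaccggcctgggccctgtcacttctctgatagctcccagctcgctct

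TATAAA was found in the KRT3 window and not in those of KRT4 and KRT5, and 11.5% of all 35116 promoters in the table hold it. GCCNNNGGC was found in KRT4 alone of the 3 and is in 23.2% of promoters. CACCC was found once in each of the 3 windows and is in 59.9% of promoters, and CANNTG, the letters of the E box, was found at 2 places in KRT5 and at 1 each in KRT3 and KRT4 and is in 68.7%. TGANTCA, the letters of the AP-1 motif, and CCAAT were in none of the 3 windows, beside 7.71% and 34.6% of promoters. The motifs do not overlap one another in these windows, and a match describes letters, not binding.

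Genes of the stratified programme other than keratins followed the members in part. Of the cornified envelope and calgranulin genes, which are used late in squamous differentiation, 3 of 11 that passed were 2-fold lower with the shRNAs in PC9 and 4 of 10 in PC9M, beside 1.92% and 0.808% of all genes, and none was higher. The list medians were -0.53 and -0.78. In PC9 the calls were near the threshold: SPRR1B moved from -1.01 to -0.92 after centring, and with 5 FPKM added none of the listed genes was 2-fold lower. The small proline-rich gene SPRR1B stood at 7.55 and 3.24 FPKM in PC9 and at 9.98 and 2.81 in PC9M. SPRR1A stood at 11.6 and 3.20 FPKM in PC9M, a ratio of -1.58. The calgranulin S100A8 stood at 5.26 and 1.73 FPKM in PC9 and at 10.8 and 0.742 in PC9M. In PC9M S100A8 passed through the scrambled library alone, so its lower side was set by the minimum. Its partner S100A9 stood at 413 and 145 FPKM in PC9M, a ratio of -1.50. In PC9, S100A9 was nearly level at 355 and 325 FPKM, a ratio of -0.13. A related proline-rich gene, SPRR3, stood at 20.6 and 8.67 FPKM in PC9.

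With GNF5 the medians of this list were 0.03 in PC9 and 0.50 in PC9M. In PC9, 3 of 9 were 2-fold higher and 1 lower, beside 5.17% and 6.83% of all genes. SPRR1A stood at 0.786 and 7.84 FPKM, the transglutaminase TGM5 at 13.6 and 35.1 FPKM, and S100A9 was lower at 748 and 288 FPKM. SPRR1A, SPRR1B and SPRR3 passed there through the GNF5 library alone, so their higher side was set by the minimum. In PC9M, 1 of 11 was 2-fold higher, SPRR1A at 1.50 and 10.4 FPKM, beside 1.58% of all genes. None was lower, beside 1.81%. Like the KRT6 sum, SPRR1A was therefore higher with GNF5 in both lines. In H358 none of the 4 genes that passed was 2-fold apart, beside 2.4% of all genes lower and 1.12% higher.

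**Figure D5:**
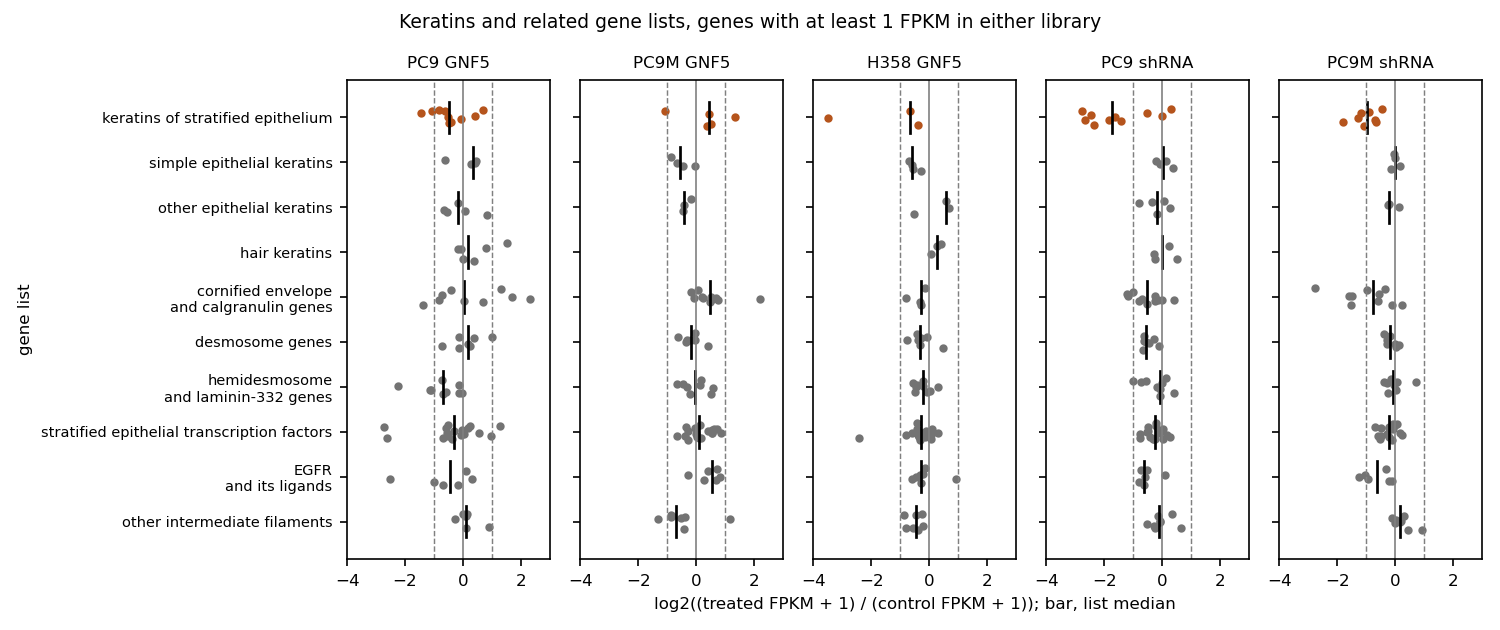
Log2 ratios of the members (brown) and of related gene lists (grey) in the 5 pairs, for genes with at least 1 FPKM in either library; black bars are list medians and dashed lines mark 2-fold. With the shRNAs the members' median is the lowest of the lists shown in both lines. The members were chosen from these ratios, so nothing is read from that rank. Without centring, the desmosome and simple keratin lists hold no gene past 2-fold in any pair.

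Keratin filaments are anchored at desmosomes between cells and at hemidesmosomes on the basement membrane. None of the 7 desmosome genes that passed was 2-fold apart in any pair without centring, and their median with the shRNAs in PC9 was -0.57. Over the 5 pairs 0.808% to 6.83% of all genes were 2-fold lower and 1.01% to 5.17% higher, so little is read from that count. DSP in PC9 with GNF5 came nearest, at 14.7 and 30.3 FPKM. Its ratio of 0.99 became 1.09 after centring, which is past 2-fold. Of the hemidesmosome and laminin-332 genes, 1 of 9 was 2-fold lower with the shRNAs in PC9, the integrin ITGA6 at 346 and 171 FPKM, beside 1.92% of all genes. None was lower by 2-fold in PC9M, beside 0.808%. The ITGA6 ratio of -1.01 in PC9 became -0.92 after centring and -0.99 with 5 FPKM added, so that this call was lost in both cases. With GNF5 in PC9, 3 of 9 were 2-fold lower, beside 6.83% of all genes. These were the keratin linker PLEC at 88.4 and 17.9 FPKM, ITGA6 at 161 and 72.8 FPKM and its partner ITGB4 at 103 and 47.9 FPKM. 

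Transcription factors of stratified epithelium were mostly within 2-fold. With the shRNAs 0 of 17 that passed were 2-fold apart in either line. Of all genes, 1.92% were 2-fold lower and 1.21% higher in PC9, and 0.808% and 1.01% in PC9M. At such shares little is read from a count of 0. KLF4 stood at -0.77 in PC9 and -0.69 in PC9M. With GNF5 in PC9, the AP-1 subunits FOS and FOSB stood at -2.71 and -2.63 and ELF3 at 1.28. In H358, TP63, a transcription factor central to stratified epithelium, stood at 34.4 FPKM with DMSO and 5.66 with GNF5, a ratio of -2.41, beside KRT4 at -3.49. TP63 did not exceed 0.606 FPKM in PC9 or PC9M. KRT13, KRT16 and KRT5 stood at 880, 458 and 12.6 FPKM in PC9 with DMSO and at 1416, 298 and 89.3 FPKM with scrambled shRNA. No part of any of these transcription factors in the keratin levels was tested.

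The genes nearest in pattern over the 5 ratios were sought among 10303 genes with at least 1 FPKM in either library of every table. Not every profile met that minimum: KRT5 was below 1 FPKM in the PC9M and H358 pairs with GNF5, KRT17 in the PC9M pair and the KRT6 sum in the H358 pair, and ratios there lie near 0 because 1 FPKM was added. Likeness was the root mean square difference of the log2 ratios over the 5 pairs. Nearest to the KRT6 sum were PDIA4 at 0.50, SDC4 at 0.59, ABL1 at 0.68, SCARB2 at 0.69 and ABL2 at 0.76, beside a median of 1.53 for all candidates. ABL1 and ABL2 are the targets of the shRNAs. Nearest to KRT17 were LOC642852, DHRS4L2, AGA, ZNF688 and C9orf3, at 0.15 to 0.16 beside a median of 0.62. Nearest to KRT5 were MGC72080 at 0.11 and KIAA1468, C5orf22, R3HDM4 and ATP11B at 0.15, beside a median of 0.51. With 5 ratios per gene and no replicates, these neighbours are a description.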

How the data were processed

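RNA was sequenced by the authors, who deposited FPKM for both libraries of each of 5 pairs. Alignment used TopHat and comparison Cuffdiff on hg18, per the submitters' processing notes; versions, annotation, read length and depth are not given in the sources used here. In the low FPKM values of 3 tables, a common step put the treated over control depth at 1.04 for PC9M with GNF5, 1.19 for H358 and 1.07 for the PC9M shRNAs. In the 2 PC9 tables no step stood out as far (54 and 63 genes at the commonest ratio, against 235, 264 and 135), so no depth ratio is given. Per table, 28 entries with a symbol turned into a date were dropped, and EEF1A1 was left out for want of an estimate in 1 table. Listed starts count from 0, so 1 was added. Members and gene lists were chosen with earlier results of these data known. With 1 library per group no test was run, and Cuffdiff's p-values were not used. Alternatives were pseudocounts of 0.1 and 5 FPKM, centring, a minimum of 0 or 5 FPKM, and summing the KRT6 genes. Named genes are the members, ABL1, ABL2, simple keratins, up to 4 genes per list and pair with the largest ratio in size and at least 5 FPKM, and the 5 nearest in pattern. Cell type markers, BTC, KRT9 and S100A9 in PC9 with the shRNAs are named outside the rule, after their values were seen. Sequences come from GENCODE v29 and RefSeq. Python 3.11.15, numpy 2.4.6, pandas 2.3.3 and matplotlib 3.10.9 were used, and the counting script was tested on simulated data.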

Additional observations from a re-analysis of the deposited data

How the results depend on the processing

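Of 108 ratios of members recomputed with another pseudocount or with centring, 94 kept their side of 2-fold, 9 were no longer past it and 5 newly passed it. Centring changed the sign of 2 ratios near 0, KRT6A in PC9 with GNF5, to 0.03, and KRT4 in PC9 with the shRNAs, to 0.08. With a pseudocount of 0.1 FPKM, members 2-fold higher in PC9M with GNF5 went from 1 to 2, members lower in H358 from 1 to 2 and members lower with the shRNAs in PC9M from 4 to 7. Among the 157 listed genes that are not members, that pseudocount gave 14 lower and 10 higher in PC9 with GNF5, where there had been 9 and 5, and 2 lower and 6 higher in PC9M with GNF5, where there had been 1 and 3. It gave 1 higher in H358, 7 lower and 1 higher with the shRNAs in PC9 and 10 lower with the shRNAs in PC9M. With a pseudocount of 5 FPKM no member was 2-fold lower in PC9 with GNF5 (0) or 2-fold apart in PC9M with GNF5 (0 lower, 0 higher), and 2 were lower with the shRNAs in PC9M. Listed genes then numbered 3 higher in PC9 and 1 higher in PC9M with GNF5, 1 lower in H358, 0 lower with the shRNAs in PC9 and 3 lower in PC9M. Centring left 1 member lower in PC9 and 0 in PC9M with GNF5, 1 listed gene lower and 1 higher in H358, and 2 listed genes lower with the shRNAs in PC9. A minimum of 5 FPKM left 0 members lower in PC9 with GNF5 and 0 lower and 0 higher in PC9M with GNF5, because fewer genes were counted. With the KRT6 genes replaced by their sum, 2 members were lower with the shRNAs in PC9M. Without the KRT6 genes the members' share of keratin FPKM in PC9M with scrambled shRNA was 0.195% in place of 1.54%. Leaving out the minimum level cannot change a 2-fold count when 1 FPKM is added, and a minimum does not enter a ratio. The causes of the other moves were not tested. No paired analysis was possible because each group holds 1 library and so 1 replicate number. A fit over the lines, with the line as a block, was not run, since the members were chosen from these ratios and the lines are not replicates of one another. Each value rests on single libraries of unknown depth.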

Other observations

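Keratins and other intermediate filaments outside the stratified set were mostly within 2-fold. Among the other epithelial keratins, KRT10, a keratin of differentiating epidermis, stood at 66.0 FPKM in PC9 with DMSO and 118 with GNF5, a ratio of 0.83, and at 53.8 and 47.7 FPKM with the scrambled and ABL1/ABL2 shRNAs. With 1 FPKM added, none of the 3 to 5 genes of that list that passed 1 FPKM in a pair was 2-fold apart. Of all genes, 0.808% to 6.83% were 2-fold lower and 1.01% to 5.17% higher over the 5 pairs. The hair keratin KRT81 stood at 56.4 FPKM in PC9 and 50.0 FPKM in H358 with DMSO, set across tables, and at 0.365 FPKM in PC9M. KRT34 stood at 1.43 FPKM in PC9 with DMSO and 5.89 with GNF5, a ratio of 1.50. Among the filaments outside the keratins, the lamin LMNB1 stood at 43.3 and 16.8 FPKM in PC9M with DMSO and GNF5, a ratio of -1.32, and the mesenchymal filament VIM at 4.67 and 11.7 FPKM, a ratio of 1.16. With the shRNAs in PC9M VIM stood at 8.77 and 17.4 FPKM, a ratio of 0.92 short of 2-fold.

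Of EGFR and its ligands, which act on epithelial growth, HBEGF stood at 140 FPKM in PC9 with DMSO and 23.3 with GNF5, a ratio of -2.53. With the shRNAs in PC9M all 6 genes that passed were lower. Of these, BTC, at 1.47 and 0.997 FPKM, passed through the scrambled library alone, so its side was set by the minimum. Nothing is read from that count. AREG and EREG were 2-fold lower, at -1.24 and -1.05, beside 0.808% of all genes. In PC9 with the shRNAs none was 2-fold apart, beside 1.92% of all genes lower and 1.21% higher, and the median was -0.61.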
